A study of Homo sapiens with 6 samples.

Results

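Described here are 9 genes that encode proteins which bind short elements in mature mRNA and set how long the message lasts: ZFP36, ZFP36L1, ZFP36L2, KHSRP, ELAVL1, RC3H1, RC3H2, ZC3H12A and PUM2. They were taken by symbol, for the known function of the proteins, from a table of 18806 genes, and all 9 were among the 11151 genes that passed the filter for testing. The table holds TPM (a transcript abundance scaled by transcript length and to the same total in every library) from polyadenylated RNA. The cells were Mono-mac-6, a monocytic line from human acute myeloid leukemia that carries the MLL-AF9 fusion. The groups were sgDDX6.1 and sgDDX6.2, which received either of 2 guide RNAs against DDX6, and sgNS, which received a control guide, with 2 libraries each and 6 in all. All 3 groups came from a single Cas9-expressing clone, carried a lentiviral guide and grew under selection (hygromycin B at 200 µg/ml, blasticidin at 10 µg/ml), so the data describe 1 clone of 1 line. The labels give harvest at day 8 after infection, which the stated selection of 1 to 2 weeks may exceed.

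The steady level of an mRNA depends on elements, mostly in its 3′ UTR, that are read by proteins. ZFP36 (tristetraprolin) and its paralogs bind AU-rich elements through zinc fingers and recruit the CCR4-NOT deadenylase, after which the message is decapped with the help of DDX6, the helicase targeted here. KHSRP also promotes decay of AU-rich mRNAs, whereas ELAVL1 (HuR) binds overlapping U-rich and AU-rich stretches and usually protects them. The roquins RC3H1 and RC3H2 and the endonuclease ZC3H12A (regnase-1) act on stem-loops of inflammatory mRNAs, and PUM2 binds the Pumilio element. In monocytic cells such proteins are best known for limiting cytokine mRNAs.

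Several of these genes carry the same elements in their own 3′ UTR, so the stretches are shown first. In the 3′ UTR of the longest protein-coding transcript (GENCODE release 29, GRCh38), ZFP36, ZFP36L1, ZFP36L2 and ELAVL1 each held 1 AU-rich nonamer (TTATTTATT) and RC3H2 held 2. KHSRP, RC3H1, ZC3H12A and PUM2 held none. The shorter AU-rich heptamer (TATTTAT), which lies inside every nonamer, occurred 3 times in each ZFP36 paralog, 5 times in ELAVL1 and in RC3H2, 2 times in RC3H1 and 1 time in PUM2. The Pumilio element (TGTANATA) occurred 2 times each in RC3H1, RC3H2 and PUM2. Only the transcript strand was searched, and a match is no evidence of binding. Shown as DNA letters of the transcript strand are 30 bases around a nonamer of each gene that holds one (the first in RC3H2) and around the first Pumilio element of PUM2, with the element in capitals.
ZFP36 (chr19:39409196-39409225, plus strand): tatgacgactTTATTTATTctaatatgatt
ZFP36L1 (chr14:68788076-68788105, minus strand): aactgttggaTTATTTATTttagaaattcc
ZFP36L2 (chr2:43223447-43223476, minus strand): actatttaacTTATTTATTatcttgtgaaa
ELAVL1 (chr19:7961827-7961856, minus strand): atttatgtatTTATTTATTgaagtgtgaaa
RC3H2 (chr9:122849198-122849227, minus strand): cttagttaacTTATTTATTtctattttatg
PUM2 (chr2:20251142-20251171, minus strand): gtttatagagaTGTATATAgaattatagtc

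DDX6 itself checks the labels of sgDDX6 against sgNS. It stood at 51.97 to 54.41 TPM in the 4 sgDDX6 libraries, against 99.50 and 102.12 TPM in sgNS. The guides overlapped in this gene, so it does not check the label of one guide against the other. Annotated processed pseudogenes of DDX6 can share reads with it, and an antisense transcript overlaps its exons. Replicates of a group correlated at r = 0.998 in each group across genes, which are not independent replicates. Whether replicates were cultured separately is not stated. The p-values therefore weigh differences against a spread between libraries that may be technical. TPM keeps no read depth, so the depth is unknown and no counting interval is given. Of 10 monocyte and myeloid markers, 7 reached 1 TPM in every library, CD14 averaged 0.57, 0.695 and 1.27 TPM in sgDDX6.1, sgDDX6.2 and sgNS, and FCN1 stayed below 1 TPM throughout. Their summed level was 14588 to 15693 TPM in sgDDX6 libraries, against 10649.7 and 10167 TPM in sgNS. That sum was almost all LYZ, the lysozyme gene (13819 to 14945 TPM in sgDDX6 libraries, against 10031 and 9531 TPM in sgNS). Of the 9 markers tested, 5 were called higher and 4 lower, where 33.8% of all tested genes were called higher and 32.9% lower. The higher ones were CSF1R (1.13), LYZ (0.56), SPI1 (0.52), CEBPA (0.41) and CD33 (0.18). The lower ones were MPO (-1.23), FCGR1A (-0.59), CD14 (-0.49) and ITGAM (-0.34). CSF1R reached 1 TPM only in sgDDX6 libraries (0.71 and 0.98 TPM in sgNS), and CD14 only in sgNS. Both thus passed the filter only through the group where they were higher, and their directions carry no weight in these counts. The part of the marker changes in the results below was not tested. Of 16 markers of other cell types, 13 stayed below 1 TPM in every library, and CD3D, CD3E, CD2, MS4A1, HBB and CDH5 were among those listed at 0 in all 6. The 16 summed to 13.4 to 21.5 TPM in sgDDX6 libraries, against 21.7 and 22.1 TPM in sgNS. Most of that sum was KRT18, which averaged 11.0 and 17.6 TPM in sgDDX6.1 and sgDDX6.2, against 19.7 TPM in sgNS (-0.47). In these bulk samples fewer cells with a transcript and less of it per cell cannot be told apart.

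With DDX6 targeted, 4 of the 9 genes rose (ZFP36, ZFP36L2, ELAVL1 and ZC3H12A), 4 fell (ZFP36L1, RC3H2, PUM2 and KHSRP) and RC3H1 did not pass the test. Thus 8 of 9 were called over both guides at a limma adjusted p under 0.05, where 66.7% of all tested genes were called, 33.8% higher and 32.9% lower. So many genes passed that a call by itself says little of these 9. In the same 8, all 4 sgDDX6 libraries lay on one side of both sgNS libraries, as they did for 63.4% of tested genes. The difference in size was largest for ZFP36L1, whose change exceeded that of 94.6% of tested genes, while those of ZC3H12A, ZFP36L2 and RC3H2 exceeded that of 76.1% to 79.6%. ZFP36, ELAVL1, PUM2, KHSRP and RC3H1 lay between 18.6% and 65.6%. The median difference of the 9 was 0.08 on the log2 scale, beside 0.0008 over all tested genes. With 4 genes above and 4 below, this median is the value of RC3H1 alone, which was not called, and shows no shift of the set. It was 0.13 without sgNS replicate 1 and without sgDDX6.1 replicate 2. Without sgNS replicate 2 and without sgDDX6.1 replicate 1 it was 0.025 and 0.029, again the values of RC3H1.

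**Figure D1:**
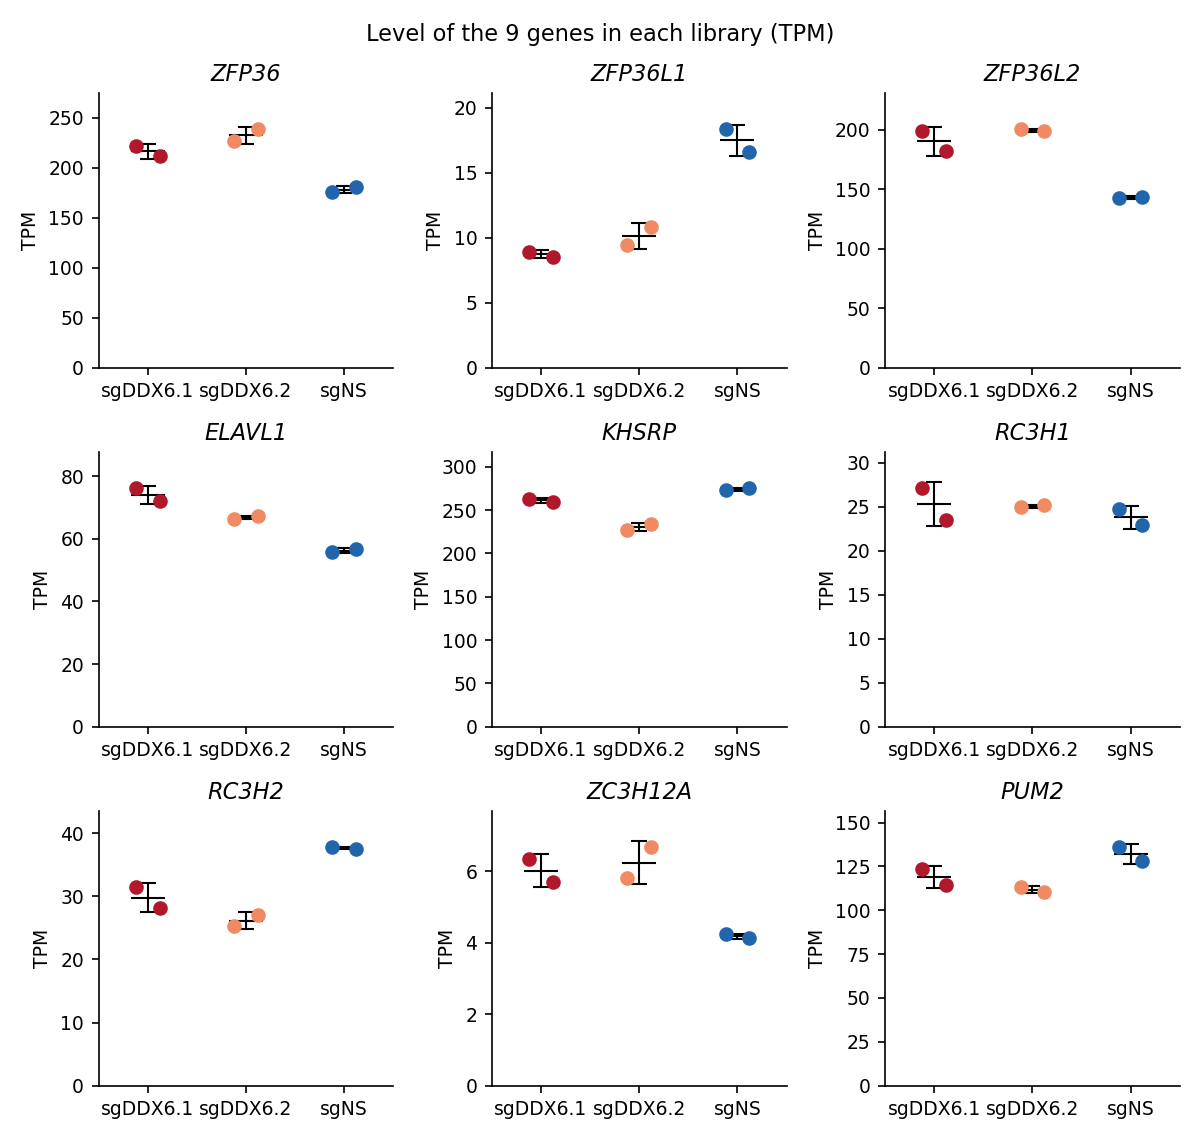
TPM of each of the 9 genes (vertical axes, each from 0) in the 2 libraries of sgDDX6.1, sgDDX6.2 and sgNS. Points are libraries and bars the mean ± SD of 2; relative to the sgNS level the lowest sgDDX6 libraries are those of ZFP36L1, at 8.51 to 10.82 TPM against 16.62 and 18.34 TPM in sgNS.

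Among the AU-rich destabilizers, the paralogs of the ZFP36 family moved in opposite directions. ZFP36 (chromosome 19, 39406813 to 39409412), the founding member and itself an immediate early gene, had 221.91 and 211.25 TPM in sgDDX6.1 and 226.45 and 238.37 TPM in sgDDX6.2, against 175.35 and 180.26 TPM in sgNS. All 4 sgDDX6 libraries were above both sgNS libraries, the difference over both guides was 0.33 on the log2(TPM + 1) scale (SE 0.04), and its adjusted p was 9.95e-06 (limma, Benjamini-Hochberg). ZFP36L2 (chromosome 2, 43222402 to 43226609), a paralog known for its part in blood cell development, had 198.97 and 181.82 TPM in sgDDX6.1 and 200.34 and 198.78 TPM in sgDDX6.2, against 142.28 and 143.62 TPM in sgNS. It too was higher in every sgDDX6 library, by 0.44 (SE 0.04, limma adjusted p = 1.69e-06).

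ZFP36L1 (chromosome 14, 68787660 to 68796253), which also restrains cell cycle and cytokine mRNAs, went the other way. It had 8.93 and 8.51 TPM in sgDDX6.1 and 9.41 and 10.82 TPM in sgDDX6.2, against 18.34 and 16.62 TPM in sgNS. The sgDDX6 libraries averaged 53.9% of the sgNS level, and no sgDDX6 library reached either sgNS library. The difference was -0.83 (SE 0.07, limma adjusted p = 1.20e-06), beside -0.91 for DDX6.

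Because TPM is per length, paralogs can be added. The 3 paralogs together summed to 401.6 to 448 TPM in the sgDDX6 libraries, against 336 and 340.5 TPM in sgNS, with no overlap. ZFP36 held 51.6% to 53.2% of this sum in sgDDX6 libraries and 52.2% and 52.9% in sgNS. ZFP36L1 held 2.08% to 2.42% in sgDDX6 libraries, against 4.88% and 5.46% in sgNS, and ZFP36L2 held 44.4% to 46.3%, against 42.2% and 42.3%. The family total was thus carried by ZFP36 and ZFP36L2 in every library, and the decrease of ZFP36L1 took a small share of it.

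**Figure D2:**
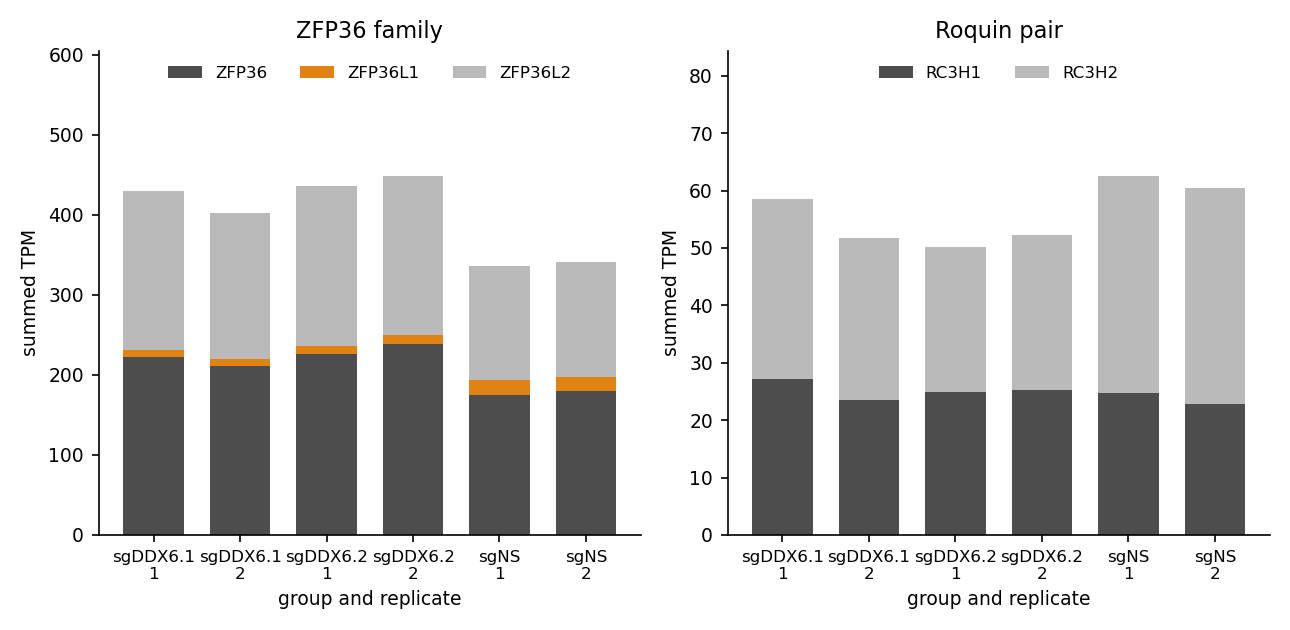
Summed TPM (vertical axes, from 0) of the 3 ZFP36 paralogs on the left and of the roquin genes RC3H1 and RC3H2 on the right, stacked by gene, in each library. The ZFP36 family sum is higher in all 4 sgDDX6 libraries (401.6 to 448 TPM) than in sgNS (336 and 340.5 TPM), while the roquin sum is lower (50.2 to 58.5 TPM against 60.4 and 62.5 TPM).

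KHSRP (chromosome 19, 6413348 to 6424794), a KH-domain protein that brings decay enzymes to AU-rich mRNAs, had the highest sgNS level of the 9. It stood at 263.41 and 259.55 TPM in sgDDX6.1 and 227.58 and 233.91 TPM in sgDDX6.2, against 272.83 and 275.25 TPM in sgNS. Every sgDDX6 library was lower, with a difference of -0.16 (SE 0.03, limma adjusted p = 0.00101). An annotated processed pseudogene, KHSRPP1, can share reads with it.

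ELAVL1 (chromosome 19, 7958579 to 8005659), the stabilizer of the set, rose. It had 76.12 and 71.96 TPM in sgDDX6.1 and 66.36 and 67.23 TPM in sgDDX6.2, against 55.70 and 56.70 TPM in sgNS. The groups did not overlap, and the difference was 0.32 (SE 0.04, limma adjusted p = 3.62e-05). An antisense transcript overlaps its exons, and without a stated strand setting reads of the pair cannot be told apart. Its neuronal relatives were listed at 0 in every library (ELAVL2 and ELAVL4) or averaged at most 0.005 TPM in a group (ELAVL3), so ELAVL1 made up nearly all of the family's TPM.

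Among the stem-loop binders, RC3H2 and RC3H1 differed. RC3H2 (roquin-2, chromosome 9, 122844556 to 122905341) had 31.39 and 28.14 TPM in sgDDX6.1 and 25.24 and 27.06 TPM in sgDDX6.2, against 37.76 and 37.55 TPM in sgNS. All 4 sgDDX6 libraries were lower, by -0.42 on the log2 scale (SE 0.06, limma adjusted p = 4.2e-05). RC3H1 (roquin-1, chromosome 1, 173931214 to 174022297), its partly redundant paralog, had 27.12 and 23.55 TPM in sgDDX6.1 and 24.95 and 25.18 TPM in sgDDX6.2, against 24.72 and 22.89 TPM in sgNS. These groups overlapped, and the difference of 0.08 had a 95% confidence interval of -0.06 to 0.22 (limma adjusted p = 0.291), which includes a change of small size in either direction. RC3H2 held 50.3% to 54.4% of the roquin sum in sgDDX6 libraries, against 60.4% and 62.1% in sgNS.

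ZC3H12A (regnase-1, chromosome 1, 37474552 to 37484379), an endonuclease for stem-loop mRNAs that is itself induced by inflammatory signals, was the least abundant of the 9. It had 6.34 and 5.69 TPM in sgDDX6.1 and 5.81 and 6.67 TPM in sgDDX6.2, against 4.23 and 4.13 TPM in sgNS. No library of one group entered the range of the other. The difference was 0.46 (SE 0.08, limma adjusted p = 0.000331). Since the level is low the log2(TPM + 1) scale understates it: the mean TPM of the sgDDX6 libraries was 146.6% of that in sgNS. Its more abundant paralog ZC3H12C averaged 15.3 and 14.9 TPM in sgDDX6.1 and sgDDX6.2, against 19.8 TPM in sgNS (-0.37, limma adjusted p = 0.000351). ZC3H12D was higher (0.27) and ZC3H12B was not called (-0.15, limma adjusted p = 0.166), so the paralogs did not share a direction.

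PUM2 (chromosome 2, 20248691 to 20352234), a repressor that recruits CCR4-NOT to Pumilio elements, fell. It had 123.36 and 114.62 TPM in sgDDX6.1 and 113.29 and 110.32 TPM in sgDDX6.2, against 135.90 and 127.99 TPM in sgNS. All 4 sgDDX6 libraries were below both sgNS libraries, and the difference was -0.19 (SE 0.04, limma adjusted p = 0.00191).

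Each guide was also set against sgNS alone. With sgDDX6.1, 7 of the 9 were called, 4 higher and 3 lower, where 61.6% of tested genes were called, 31.8% higher and 29.7% lower. With sgDDX6.2, 8 were called, 4 higher and 4 lower, where 64.2% were called, 31.5% higher and 32.7% lower. Both comparisons use the same 2 sgNS libraries, so they are not independent. ZFP36L1 differed from sgNS by -0.93 with sgDDX6.1 and -0.73 with sgDDX6.2, ZFP36L2 by 0.41 and 0.48, and ZFP36 by 0.28 and 0.38. ZC3H12A differed by 0.44 with sgDDX6.1 and 0.48 with sgDDX6.2, RC3H2 by -0.33 and -0.51, and ELAVL1 by 0.39 and 0.25. PUM2 differed by -0.15 with sgDDX6.1 (limma adjusted p = 0.0216) and by -0.24 with sgDDX6.2. The sgDDX6.1 call of PUM2 was lost without sgNS replicate 1 (-0.11, limma adjusted p = 0.151) and without sgDDX6.1 replicate 2 (-0.096, limma adjusted p = 0.150), as well as with no filter (adjusted p = 0.0586) and with no variance trend (adjusted p = 0.0685). RC3H1 differed by 0.08 and 0.07 and was called with neither guide.

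**Figure D3:**
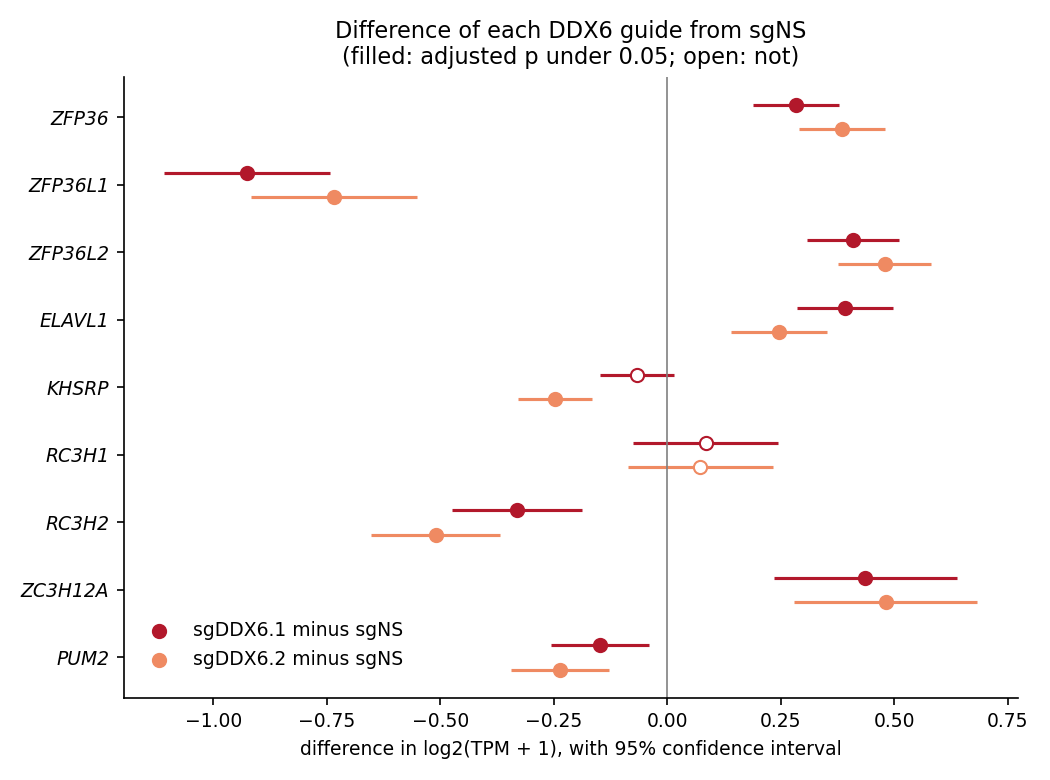
Difference in log2(TPM + 1) of sgDDX6.1 and of sgDDX6.2 from sgNS (horizontal axis) for each gene, with 95% confidence intervals from limma. Filled points have an adjusted p under 0.05 and open points do not; ZFP36L1 lies at -0.93 and -0.73, and KHSRP lies at -0.07 (not called) and -0.25.

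The guides were compared with each other directly, and their libraries did not overlap for 6 of the 9 genes, where they did not for 69.1% of tested genes. KHSRP was lower with sgDDX6.2 than with sgDDX6.1 by -0.18 (95% confidence interval -0.26 to -0.10, limma adjusted p = 0.00342), and ELAVL1 by -0.15 (-0.25 to -0.04, limma adjusted p = 0.0353). These 2 of 9 were called, both lower and 0 higher, where 35.6% of tested genes were called, 17.0% higher and 18.6% lower. For KHSRP, sgDDX6.1 was not called against sgNS (-0.07, limma adjusted p = 0.133), except with quantile normalization (-0.085, limma adjusted p = 0.0407), and sgDDX6.2 was lower (-0.25, limma adjusted p = 0.000114). For ELAVL1 both guides lay above sgNS, sgDDX6.1 farther. The other 7 were not called, with 95% confidence intervals such as -0.32 to -0.04 for RC3H2 (adjusted p = 0.0507 by limma), 0.008 to 0.37 for ZFP36L1 and -0.03 to 0.17 for ZFP36L2. DDX6 differed between the guides by -0.008 (95% confidence interval -0.11 to 0.10). The call of ELAVL1 was lost without sgDDX6.1 replicate 1 or either sgDDX6.2 library (adjusted p = 0.147, 0.189 and 0.136 by limma), and without sgDDX6.2 replicate 1 that of KHSRP was lost as well (-0.16, adjusted p = 0.0523 by limma).

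The order of the levels changed at 1 place. In sgDDX6.1 the order was KHSRP (261 TPM on average), ZFP36 (217), ZFP36L2 (190.4), PUM2 (119), ELAVL1 (74.0), RC3H2 (29.8), RC3H1 (25.3), ZFP36L1 (8.72) and ZC3H12A (6.02). In sgDDX6.2, ZFP36 (232 TPM) and KHSRP (231 TPM) overlapped, and the rest kept the same order. In sgNS it was KHSRP (274 TPM), ZFP36 (178), ZFP36L2 (143), PUM2 (132), ELAVL1 (56.2), RC3H2 (37.7), RC3H1 (23.8), ZFP36L1 (17.5) and ZC3H12A (4.18). All other neighbours in a group were apart, that is, the libraries of one did not reach those of the next. Averaged over the 6 libraries, KHSRP was more abundant than 94.6% of tested genes, ZFP36 than 93.1% and ZFP36L2 than 91.7%. ZFP36L1 exceeded 30.7% and ZC3H12A 17.7%.

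Genes with the closest pattern were found for the 3 genes with the largest differences, by Euclidean distance over the 6 libraries between log2(TPM + 1) values centred on the sgNS mean, among 9297 other genes with a mean of at least 5 TPM. For ZFP36L1 these were AHR, the dioxin receptor (distance 0.12), CCNG2, a cyclin of the G type (0.15), and PTER (0.16), which differed from sgNS by -0.80, -0.89 and -0.87. For ZC3H12A they were PSD4 (0.095), the vitamin D receptor gene VDR (0.12) and WDFY4 (0.12), at 0.46, 0.48 and 0.44. For ZFP36L2 they were PANK4, PTPRJ and the interferon receptor gene IFNAR2 (0.069 to 0.076), at 0.43, 0.46 and 0.42.

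Beside the counts of each list below stand the shares over all tested genes, 32.9% lower and 33.8% higher. Of 31 tested genes for other proteins that bind elements of mature mRNA, 15 (48.4%) fell and 5 (16.1%) rose, with a median of -0.15 on the log2 scale. This median is the value of ZC3H12B, which was not called and averaged 1.02, 1.035 and 1.255 TPM in sgDDX6.1, sgDDX6.2 and sgNS. The median was smaller in size with no filter or with the larger pseudocount, as given at the end. MEX3C, a KH-domain and RING-finger protein, averaged 24.5 ± 0.37 TPM in sgDDX6.1 and 23.8 ± 0.41 in sgDDX6.2, against 39.8 ± 0.36 TPM in sgNS (SD, n = 2 each). PCBP2, a poly(C)-binding protein, averaged 329 ± 14.3 TPM in sgDDX6.1 and 289.8 ± 0.75 in sgDDX6.2, against 436 ± 1.97 TPM in sgNS, and PCBP1 differed by -0.35. IGF2BP3, an mRNA stabilizer, differed by -0.62, and by 0.43 between sgDDX6.2 and sgDDX6.1 (limma adjusted p = 0.00129).

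Of 27 tested genes for regulators of the 9 proteins (kinases, phosphatase subunits, 14-3-3 proteins, proteases, ligases and others), 16 (59.3%) rose and 3 (11.1%) fell, against 33.8% and 32.9% of all tested genes, with a median of 0.17. The kinase genes MAP2K3 (0.57), MAPKAPK3 (0.32) and MAPKAPK2 (0.29) rose, whereas MAP2K6 (0.12, limma adjusted p = 0.318) and MAP3K7 (0.05, limma adjusted p = 0.281) were not called. MAPKAPK2, whose product phosphorylates ZFP36, averaged 214 ± 3.24 TPM in sgDDX6.1 and 187 ± 3.80 in sgDDX6.2, against 164 ± 3.76 TPM in sgNS (SD, n = 2 each). The ubiquitin ligase STUB1 differed by 0.65, the largest of this list.

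Among the CCR4-NOT, PAN and decapping factors that destabilizing proteins work through, 9 of 21 (42.9%) fell and 2 (9.52%) rose, against 32.9% and 33.8% of all tested genes. The median of -0.05 was -0.09 without sgDDX6.1 replicate 1 and -0.003 without sgDDX6.1 replicate 2. The deadenylase subunit PAN2 averaged 10.7 ± 0.44 TPM in sgDDX6.1 and 10.2 ± 0.74 in sgDDX6.2, against 21.2 ± 0.91 TPM in sgNS (SD, n = 2 each), a difference of -0.95. TNKS1BP1 (-0.60), CNOT10 (-0.38) and PAN3 (-0.35) fell too. The scaffold CNOT1 differed by 0.005 and was not called.

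mRNAs reported as targets of the ZFP36 family, mostly in mouse, did not share a direction. Of 24 tested, 11 (45.8%) fell and 8 (33.3%) rose, against 32.9% and 33.8% of all tested genes, with a median of -0.18. Among those that fell, CXCL3 and CCL2 reached 1 TPM only in sgNS. They passed the filter only through the group where they were higher, so their direction carries no weight in this count. TNF was not among the genes deposited, and IL1A, IL6, IL10 and CSF2 did not pass the filter, so these cytokine mRNAs were not assessed. The angiogenic factor VEGFA averaged 33.2 ± 0.54 TPM in sgDDX6.1 and 37.4 ± 0.45 in sgDDX6.2, against 279 ± 7.64 TPM in sgNS (SD, n = 2 each), a difference of -2.95 (SE 0.04, limma adjusted p = 1.88e-13). The kinase PIM1 averaged 5.97 ± 0.09 TPM in sgDDX6.1 and 10.5 ± 0.35 in sgDDX6.2, against 52.2 ± 1.22 TPM in sgNS, and the transcription factor MYC and the chemokine CXCL8 differed by -0.77 and -0.94. The phosphatase DUSP1 (0.56), the chemokine CCL3 (0.84) and the protease PLAU (0.59) rose; they lie outside the naming rule and were chosen after their values were seen. Of 16 targets with a nonamer in the 3′ UTR, 7 fell and 5 rose, and of 8 without, 4 fell and 3 rose. Of 21 targets with a heptamer, 8 fell and 8 rose, and of 3 without, 3 fell and 0 rose, with medians of -0.14 and -0.52. These splits were not tested, and they include CXCL3 among the targets with either element and CCL2 among those without. The first nonamer of VEGFA, PIM1 and CXCL8, which fell, and of DUSP1, which rose, is shown in capitals.
VEGFA (chr6:43786286-43786315, plus strand): ttgttatcatTTATTTATTggtgctactgt
PIM1 (chr6:37174985-37175014, plus strand): tgttatgtatTTATTTATTtatttatttgg
CXCL8 (chr4:73742664-73742693, plus strand): atgtaaagtaTTATTTATTtgaatctacaa
DUSP1 (chr5:172768642-172768671, minus strand): gggctggtccTTATTTATTtaacttcaccc

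Few reported targets of roquin and regnase were expressed. Of 7 tested, 2 (28.6%) fell, 1 (14.3%) rose and 4 were not called, against 32.9% lower and 33.8% higher of all tested genes. The median of -0.11 was -0.06 without sgDDX6.1 replicate 2. The transferrin receptor TFRC, whose mRNA is also controlled by iron-responsive stem-loops, averaged 513 ± 25.3 TPM in sgDDX6.1 and 496 ± 11.1 in sgDDX6.2, against 166 ± 4.52 TPM in sgNS (SD, n = 2 each), a difference of 1.59. IER3 (-1.08) and the NF-kB cofactor NFKBIZ (-0.52) fell, and IL1B differed by -0.11 (limma adjusted p = 0.0651). Of 6 tested targets reported for Pumilio proteins, 3 (50%) fell and 2 (33.3%) rose, against 32.9% and 33.8% of all tested genes. Their median of -0.05 was -0.03 without sgDDX6.1 replicate 2. Among them MAPK14 (0.27) rose and E2F3 (-0.12) fell.

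**Figure D4:**
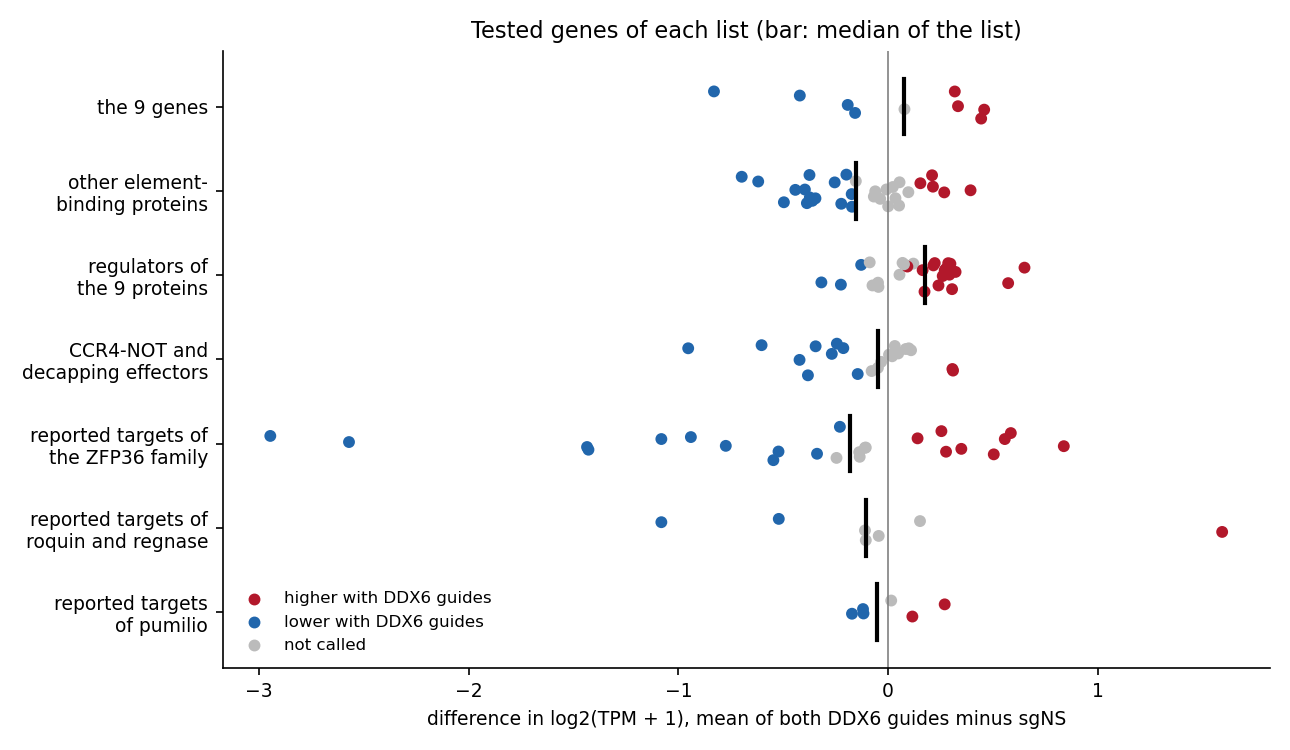
Difference in log2(TPM + 1), mean of both DDX6 guides minus sgNS (horizontal axis), for every tested gene of each list, with a bar at the list's median. The regulators of the 9 proteins have a median of 0.17. The other element-binding proteins have one of -0.15, the value of ZC3H12B alone, which was not called. The reported ZFP36 targets spread from -2.95 (VEGFA) to 0.84 (CCL3).

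The elements were then followed over all 11009 tested genes with an annotated 3′ UTR. Genes whose 3′ UTR holds a nonamer (1006, or 9.14%) had a median difference of -0.09 and were called lower in 41.4% and higher in 21.9% of cases. Genes without it had a median of 0.01, with 32.2% lower and 35.0% higher. With sgDDX6.1 alone the medians were -0.06 with and 0.02 without the nonamer, and with sgDDX6.2 they were -0.11 and 0.0003. The heptamer (34.3% of these 3′ UTRs) gave medians of -0.07 with it and 0.04 without, and the Pumilio element (28.8%) gave -0.06 and 0.03. Over all 11009 genes the median over both guides was 0.0012. Rises and falls offset each other in these medians. They are therefore not comparable with the median size of 0.23, taken without sign, over all tested genes.

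The genes with and without an element also differ in their 3′ UTRs. The median 3′ UTR was 3108 bases long with 38.3% G+C for genes with the nonamer, and 1149 bases with 43.2% G+C for those without. Within terciles of 3′ UTR length the medians with and without the nonamer were -0.02 and 0.05 (up to 708 bases, where 73 genes or 1.99% held it), -0.09 and 0.01 (middle), and -0.10 and -0.03 (from 2073 bases, where 18.6% held it). Within terciles of G+C content they were -0.14 and -0.07 (lowest), -0.06 and 0.006 (middle), and 0.04 and 0.11 (highest). In each of these 6 terciles the median was lower with the nonamer, and likewise with the heptamer and with the Pumilio element. Every nonamer holds the heptamer, so the results for these elements are not separate. Length and G+C content were split separately and were not held fixed together. The step between the lowest and highest G+C tercile, -0.07 and 0.11 among genes without the nonamer, was larger than the step between genes with and without it. No test was made of these groups, and the part of other sequence features was not tested.

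**Figure D5:**
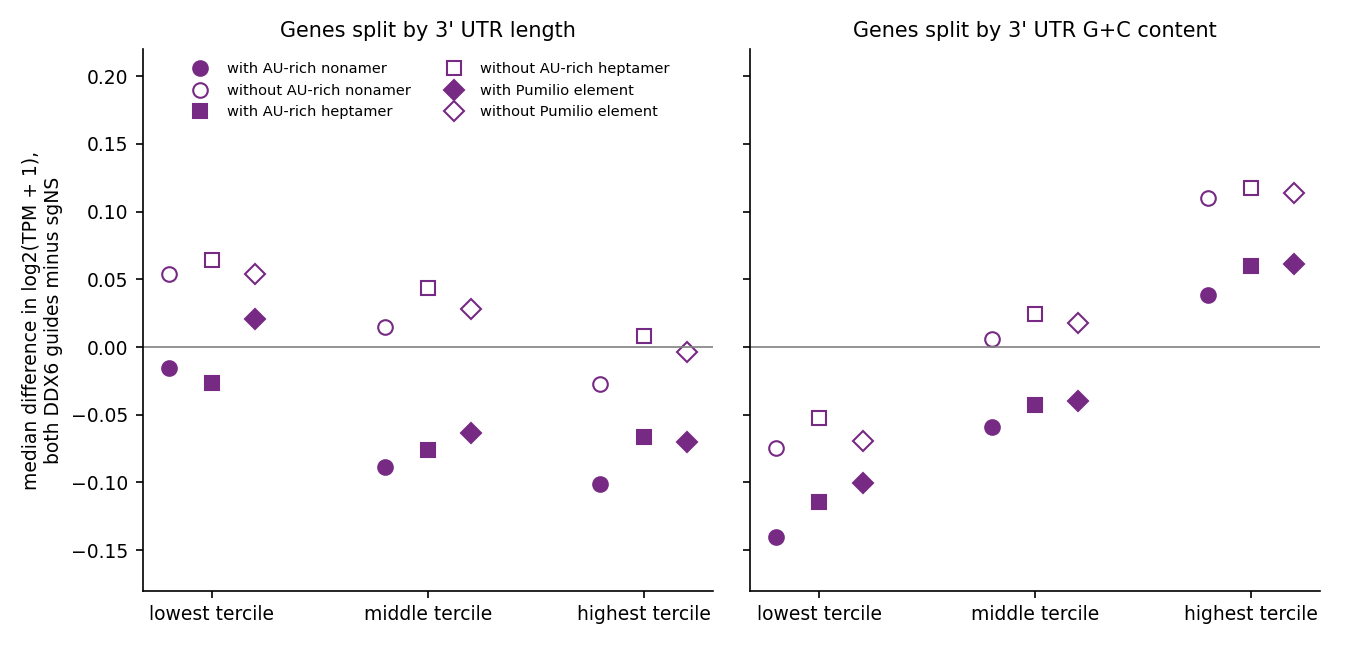
Median difference in log2(TPM + 1), both DDX6 guides minus sgNS (vertical axis), of tested genes with (filled) and without (open) each element in the 3′ UTR, in terciles of 3′ UTR length (left) and of 3′ UTR G+C content (right). In every tercile the filled symbol lies below the open symbol of the same shape, and the medians are higher at higher G+C content: with the nonamer -0.14 in the lowest and 0.04 in the highest tercile, without it -0.07 and 0.11.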

How the data were processed

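RSEM (version 1.2.31) and the GRCh38 build are named per the submitters' processing notes. No aligner or annotation is given in the sources used here. The authors deposited TPM per gene and library, each library scaled to a common total, so values are relative. Reads that match more than one gene are apportioned by RSEM's model, and values of genes that have close copies carry that uncertainty.

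From these, log2(TPM + 1) was computed for genes with at least 1 TPM in 2 or more libraries. All 6 libraries entered one linear model, with a mean for each of the 3 groups and a variance trend, in limma (version 3.58.1, R version 4.3.3), which leaves 3 residual degrees of freedom. Each gene's variance was moderated toward that trend, so its test also draws on the spread of the other genes. P-values are two-sided and Benjamini-Hochberg adjusted over all 11151 genes and a threshold of 0.05. The procedure was also run on simulated data, with known changes in few genes and independent noise. Far more genes were called in the real data, so that run does not vouch for the calls here. Intervals of a difference rest on the same moderated spread between libraries.

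Of 18806 symbols, 18294 were found in GENCODE release 29 directly and 331 by an older name. The 3′ UTR was that of the longest protein-coding transcript with an annotated end.

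The 9 genes and the gene lists were chosen with earlier results of these data known. All 9 are named, with DDX6 once. From each list up to 4 genes with the lowest adjusted p are named, and for the 3 largest changes the 3 closest genes. Markers, ELAVL and ZC3H12A relatives, ZFP36 targets that were not tested, MAP2K6, MAP3K7, CNOT1, DUSP1, CCL3, PLAU, CXCL3 and CCL2 were named outside this rule. Some genes that the rule names are not reported here. Alternatives were pseudocounts of 0.1 and 5, no filter, a filter of 5 TPM, quantile normalization, median centring, no variance trend, the replicate number as a block, only the groups compared, and each library left out. The 3′ UTR of the transcript with the longest 3′ UTR, the other settings for genes grouped by element, and the G+C terciles were added after the data were seen.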

Additional observations from a re-analysis of the deposited data

Results flagged for a closer look

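The effect of the guides differed for 2 of the 9 genes by the direct contrast of sgDDX6.2 with sgDDX6.1, which limma called at an adjusted p under 0.05. KHSRP differed by -0.18, with 227.58 and 233.91 TPM in sgDDX6.2 against 263.41 and 259.55 TPM in sgDDX6.1. ELAVL1 differed by -0.15, with 66.36 and 67.23 TPM in sgDDX6.2 against 76.12 and 71.96 TPM in sgDDX6.1. Over all genes 35.6% were called in this contrast, so 2 of 9 does not set these genes apart. The call was kept in 14 of 15 alternatives for KHSRP and in 9 of 15 for ELAVL1. Groups of 2 libraries are too small to be searched for outlying libraries.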

How the results depend on the processing

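Over both guides, 8 of the 9 genes were called under every alternative, and the direction of all 9 was kept. With sgDDX6.2 against sgNS 8 were called throughout, and with sgDDX6.1 between 6 and 8, or 6 to 7 with each library left out. The contrast of the guides was less steady: of 2 called, 1 was left with no filter, with quantile normalization and without the variance trend, and 0 to 3 with each library left out. With the replicate number as a block 4 were called in this contrast, and 8, 7 and 8 over both guides, with sgDDX6.1 and with sgDDX6.2. The deviations of same-numbered libraries correlated at 0.04, 0.098 and 0.262 between groups, and nothing in the labels ties the numbers together, so a pairing was not established.

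Directions turned for 2 genes that were not called. RC3H1 between the guides was 0.0005 with quantile normalization, 0.0086 with median centring and -0.11 to 0.086 with each library left out, and with sgDDX6.1 against sgNS -0.014 to 0.18 with each library left out. ZC3H12A between the guides was -0.030 with quantile normalization and -0.041 to 0.13 with each library left out. The cause was not tested.

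The median of the reported ZFP36 targets ranged between -0.25 (pseudocount 0.1) and -0.09 (pseudocount 5), and that of the other element-binding proteins was -0.06 with no filter or a pseudocount of 5. With no filter the roquin and regnase targets had a median of -0.02 and the Pumilio targets one of 0.015. Without read depth, the counting error of low genes such as ZC3H12A is unknown.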
